A study of Homo sapiens with 8 samples.

Results

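SK-N-SH neuroblastoma cells were examined here for the RNA of 9 genes that set the cell surface seen by neuroblastoma immunotherapy. They comprise 5 enzymes of ganglioside synthesis, namely UGCG, ST3GAL5, ST8SIA1, B4GALNT1 and ST8SIA5, and 4 surface proteins, namely CD276, GPC2, L1CAM and NCAM1. They were chosen by name, as rows of the count table that carry these GENCODE symbols, and are 9 of 60659 genes. SK-N-SH is an established line from a neuroblastoma metastasis that is known to hold both neuroblast-like and substrate-adherent cells. The study asked how ZMYND8, a chromatin reader protein, bears on the response of these cells to all-trans retinoic acid (ATRA), which drives neuronal differentiation. Sequencing was of total RNA after removal of ribosomal RNA, and reads were counted per gene.

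All 8 libraries came from cells given ATRA (10 µM, 24 h), in 4 groups of 2 biological replicates. In the overexpression experiment, parental cells with doxycycline (Dox) were the control for cells with FLAG-tagged ZMYND8 and Dox (ZMYND8 OE). By the study's methods this ZMYND8 sits in the inducible lentiviral vector pInducer20 and transduced cells were selected with G418, with no single clone described, so the vector and the selection cannot be told apart from ZMYND8 itself. In the knockdown experiment, KD control cells were compared with cells with ZMYND8 knockdown (ZMYND8 KD), and the labels of both name ATRA and no Dox. The methods describe knockdown by lentiviral shRNA in pLKO.1-puro but name other cells than SK-N-SH for its selection, and the labels say only KD. The KD control and parental groups are controls of different experiments, and by the labels they differ in Dox. Whatever else differs between the experiments, such as viral transduction, cannot be told apart from it.

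Gangliosides are lipids of the cell surface that carry sialic acid, and they are built sugar by sugar in the Golgi. UGCG puts glucose on ceramide, ST3GAL5 makes GM3, ST8SIA1 (GD3 synthase) adds a further sialic acid to give GD3, and B4GALNT1 turns GD3 into GD2, the target of the antibody dinutuximab. ST8SIA5 adds sialic acids to more complex gangliosides, CD276 encodes the checkpoint-related protein B7-H3, GPC2 a glypican of developing neurons, and L1CAM and NCAM1 adhesion molecules of neurons. Neither proteins nor gangliosides were measured here, only RNA.

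Promoter sequence is shown for the enzymes at the start of the pathway and at its GD3 step, since these moved in opposite directions in the overexpression experiment. RefSeq's table (GRCh38.p14) held windows for 6 of the 9 genes, 12 windows in all, and none for B4GALNT1, ST8SIA5 and NCAM1. The 250 bases before the RefSeq start are printed 5′ to 3′ on the gene's strand, with each GC box (GGGCGG, searched on both strands) in capitals. For ST8SIA1 they are chr12:22334708-22334957 on the minus strand, and for UGCG chr9:111896564-111896813 on the plus strand. The ST8SIA1 window lies within the counted gene (chr12:22063773-22437041) and not at its 5′ end, while the UGCG window directly precedes its counted gene.
ST8SIA1: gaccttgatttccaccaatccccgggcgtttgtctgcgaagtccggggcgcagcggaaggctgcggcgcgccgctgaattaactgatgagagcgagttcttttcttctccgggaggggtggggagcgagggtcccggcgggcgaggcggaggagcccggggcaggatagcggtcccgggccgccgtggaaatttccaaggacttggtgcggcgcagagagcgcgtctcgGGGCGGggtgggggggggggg
UGCG: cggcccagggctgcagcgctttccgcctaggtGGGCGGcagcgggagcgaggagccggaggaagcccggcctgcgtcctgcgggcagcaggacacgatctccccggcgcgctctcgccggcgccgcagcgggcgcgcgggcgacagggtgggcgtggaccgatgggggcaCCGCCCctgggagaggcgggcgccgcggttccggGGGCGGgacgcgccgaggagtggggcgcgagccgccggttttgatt
The ST8SIA1 window holds 1 GC box at 69.2% GC, and the UGCG window 3 at 78.4% GC. A GC box stands in 42.6% of the 35116 promoter windows of this length. The retinoid receptor motif AGGTCA, searched on both strands, is in 12.1% of all windows and in none of the 12 windows of these genes, and the GATA letters AGATAA are in 9.17% and in none. The E box CANNTG, in 61.8% of all windows, is in neither window printed here. These are matches of letters and not binding sites.

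The libraries held 38316523 to 56256979 counts on genes. ZMYND8 itself had 3089 and 3612 counts in the parental libraries and 220691 and 182849 in ZMYND8 OE, a log2 fold change of 5.87 (SE 0.0596), and it fell by 0.94 (SE 0.0556) on the log2 scale in ZMYND8 KD, from 3128 and 3374 to 1641 and 1640 counts. Of the markers that define neuroblastoma, HAND2 and GATA3 had at least 1653 counts in every library. TH, a noradrenergic marker, had 0 to 5 counts, and SOX10, which defines the Schwann lineage, 0 or 1. Cell state markers differed between the groups, and their values stand beside the results below. Since these are bulk samples, fewer cells of a type and less RNA per cell cannot be told apart.

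In ZMYND8 OE the GD3 and GD2 synthase genes rose, and the genes of the first steps of the pathway fell. Levels are given as CPM, the counts of a gene per 1000000 counts of a library whose size was scaled with TMM (trimmed mean of M-values). ST8SIA1 (ENSG00000111728, chr12:22063773-22437041) had 5 and 7 counts in the parental libraries and 442 and 334 in ZMYND8 OE, or 0.118 and 0.135 CPM against 8.22 and 7.59. It went from near the detection limit to a low but clear level, a log2 fold change of 5.94 (SE 0.221, edgeR adjusted p = 4.12e-09). As the parental total is 12 counts, the ratio of 62.3 has an exact 95% interval of 35.4 to 121 from counting error alone. In the KD control libraries it had 0 counts, which allows up to 0.0571 and 0.0542 CPM, and in ZMYND8 KD 5 and 3 counts, or 0.0955 and 0.0576 CPM. The gene thus stood near its floor in the 6 libraries without overexpression, and it was filtered out of the knockdown test.

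B4GALNT1 (ENSG00000135454, chr12:57623409-57633239), the GD2 synthase, was expressed throughout. It stood at 24.6 and 25.2 CPM in the parental libraries and at 64.1 and 65.0 in ZMYND8 OE, a rise of 1.38 (SE 0.0533, edgeR adjusted p = 5.40e-09) on the log2 scale. Levels were 45.9 and 43.4 CPM in the KD control and 41.8 and 43.9 in ZMYND8 KD, so the knockdown groups overlapped each other and lay between the parental and the ZMYND8 OE libraries. The knockdown difference was -0.058 (95% interval -0.19 to 0.072, adjusted p = 0.526). Of its exon bases 27.1% lie opposite SLC26A10P and ENSG00000287908, which had at most 90 counts in any library against 1047 or more for B4GALNT1.

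UGCG (ENSG00000148154, chr9:111896814-111935369), which makes the glucosylceramide that all these gangliosides start from, went the other way. It was at 138 and 139 CPM in the parental libraries and at 65.8 and 64.5 in ZMYND8 OE, where it fell by 1.08 (SE 0.0481, edgeR adjusted p = 1.53e-08) on the log2 scale. In the knockdown experiment it rose, from 153 and 158 CPM in the KD control to 185 and 191 in ZMYND8 KD, by 0.28 (SE 0.0501, adjusted p = 0.00237). None of the 4 groups overlapped another in UGCG, with ZMYND8 KD highest, then KD control, parental and ZMYND8 OE. This was the only gene of the 9 that passed the test in both experiments with opposite signs, and the contrast of the effects was tested and is given below.

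ST3GAL5 (ENSG00000115525, chr2:85837120-85905199), the GM3 synthase, stood at 31.1 and 29.2 CPM in the parental libraries and at 20.4 and 18.5 in ZMYND8 OE. It fell by 0.62 (SE 0.073, edgeR adjusted p = 3.17e-05) on the log2 scale, with no overlap. The KD control had 25.7 and 23.7 CPM and ZMYND8 KD 22.0 and 22.4, a log2 difference of -0.15 (95% interval -0.31 to 0.008, adjusted p = 0.158) that did not pass the test. It did with the replicate block and with trends of gene length and GC content taken out (-0.21, adjusted p = 0.0297). Levels of different genes can be set side by side per kilobase of summed exons. On that scale ST8SIA1 was at 0.453 and 0.461 of the level of ST3GAL5 in ZMYND8 OE, and at 0.00426 and 0.00522 of it in the parental libraries. B4GALNT1 was at 6.49 and 7.25 times ST3GAL5 in ZMYND8 OE and at 1.64 and 1.78 times in the parental libraries, and 14.3 and 15.7 times ST8SIA1 in ZMYND8 OE. ST8SIA1 RNA stayed the scarcest of the 4 enzymes on the route to GD2 in every library. Summed exon length counts the exons of all transcript models, so per-kilobase levels are low for genes with many long models, such as ST8SIA1 and ST3GAL5.

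ST8SIA5 (ENSG00000101638, chr18:46667821-46759257) had the largest log2 fold change of the 9 genes and the lowest parental counts. There were 2 and 3 counts in the parental libraries and 361 and 271 in ZMYND8 OE, or 6.71 and 6.16 CPM. The ratio of the summed counts was 122 (exact 95% interval 51.9 to 376, counting error only), and the fitted log2 fold change was 6.86 (SE 0.27, edgeR adjusted p = 6.18e-09). It also rose in ZMYND8 KD, from 7 and 8 counts to 26 and 31, by 1.96 (SE 0.401, adjusted p = 0.00519), and so rose in both experiments. The 4 groups did not overlap, in the order ZMYND8 OE, ZMYND8 KD, KD control and parental. Its opposite-strand neighbour ST8SIA5-DT, which covers 4.29% of its exon bases, had 0 to 4 counts outside ZMYND8 OE and 90 and 51 in it.

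**Figure D1:**
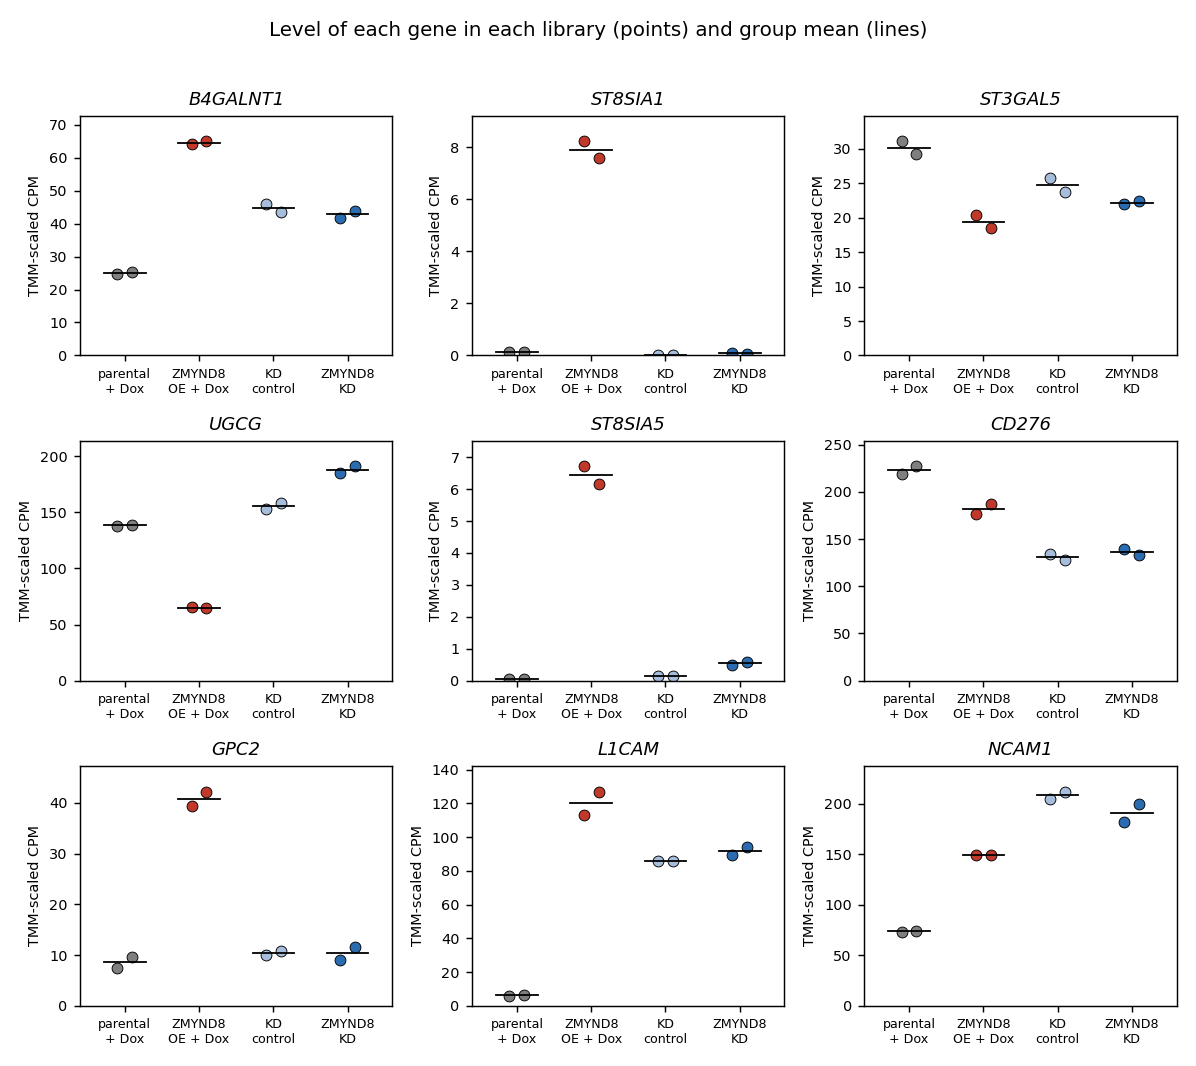
Level of each of the 9 genes (vertical axis, TMM-scaled CPM, from 0) in the 2 libraries of each group (points), with lines at the group means. ST8SIA1, ST8SIA5 and GPC2 are high in the ZMYND8 OE libraries alone among the groups, UGCG is lowest there, and L1CAM and NCAM1 are low in the parental libraries.

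Among the surface proteins, L1CAM, GPC2 and NCAM1 rose in ZMYND8 OE, and CD276 fell. L1CAM (ENSG00000198910, chrX:153861514-153886173), an adhesion molecule of growing axons, was at 5.91 and 6.46 CPM in the parental libraries and at 113 and 127 in ZMYND8 OE. This was a rise of 4.28 (SE 0.0795, edgeR adjusted p = 4.70e-11) on the log2 scale, or 19.4-fold. The KD control libraries, without overexpression, stood at 85.9 and 86.0 CPM and ZMYND8 KD at 89.6 and 94.0, so that the parental libraries were the ones that stood apart. The knockdown difference of 0.098 (95% interval -0.012 to 0.21, adjusted p = 0.184) did not pass the test, although the libraries did not overlap.

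GPC2 (ENSG00000213420, chr7:100169606-100177381), a glypican anchored in the membrane and a target of antibody-drug conjugates and CAR T cells, was at 7.51 and 9.62 CPM in the parental libraries and at 39.4 and 42.2 in ZMYND8 OE. It rose by 2.25 (SE 0.103, edgeR adjusted p = 1.83e-08) on the log2 scale. The KD control had 10.1 and 10.7 CPM and ZMYND8 KD 9.11 and 11.5, with a difference of -0.015 (95% interval -0.28 to 0.25, adjusted p = 0.946). The parental, KD control and ZMYND8 KD levels of neighbouring groups overlapped or lay close, and the ZMYND8 OE libraries stood apart from them.

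NCAM1 (ENSG00000149294, chr11:112961247-113278436), the neural cell adhesion molecule, was at 73.0 and 74.2 CPM in the parental libraries and at 149 in both ZMYND8 OE libraries, a rise of 1.03 (SE 0.0477, edgeR adjusted p = 2.10e-08) on the log2 scale. It was higher still in the knockdown experiment, at 205 and 212 CPM in the KD control and 182 and 200 in ZMYND8 KD. The knockdown difference was -0.13 (95% interval -0.25 to -0.001, adjusted p = 0.134) and did not pass the test. It was -0.19 without ZMYND8 KD replicate 2 and -0.066 without ZMYND8 KD replicate 1. Long noncoding RNAs on the other strand cover 8.09% of its exon bases and had at most 113 counts in any library, against 3100 or more for NCAM1.

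CD276 (ENSG00000103855, chr15:73683966-73714514), which encodes B7-H3, was the most abundant of the 4 surface genes per kilobase in all 8 libraries, from 23.4 to 41.4 CPM per kilobase. Its CPM were 219 and 227 in parental cells, against 177 and 187 in ZMYND8 OE, a fall of 0.29 (SE 0.0507, edgeR adjusted p = 0.000621) on the log2 scale, and of 0.52 once trends with gene length and GC content were taken out. The KD control had 134 and 128 CPM and ZMYND8 KD 139 and 133, which overlapped (0.055, 95% interval -0.059 to 0.17, adjusted p = 0.487). CD276 thus had the opposite order of controls to L1CAM and NCAM1, with the parental libraries highest.

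Counted over the 9 genes, 6 were higher and 3 lower in ZMYND8 OE at an edgeR adjusted p below 0.05, where 31.7% of the 20835 genes tested were higher and 29.1% lower. With a log2 fold change of at least 1 in size and a mean normalized count above 20 as further thresholds, 7 of the 9 were called (6 higher and UGCG lower), against 18.6% of all genes. ST8SIA1 and ST8SIA5 passed the filter on low counts and the threshold on the mean only through their ZMYND8 OE libraries. They could therefore be counted only as higher. The shares over all genes and the counts of the lists below include such genes too. The median log2 fold change of the 9 was 1.38, against 0.031 over all genes tested. In ZMYND8 KD 8 of the 9 could be tested. Of these 2 were higher (UGCG and ST8SIA5), none lower and 6 did not pass, beside 13.4% higher and 10.8% lower among 19789 genes. Here ST8SIA5 passed the filter on low counts only through the ZMYND8 KD libraries. None was called with the further thresholds, against 1.96% of all genes, since UGCG changed by less than 1 and ST8SIA5 had too low a mean. The median of the 8 was 0.02, against -0.008 over all genes.

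**Figure D2:**
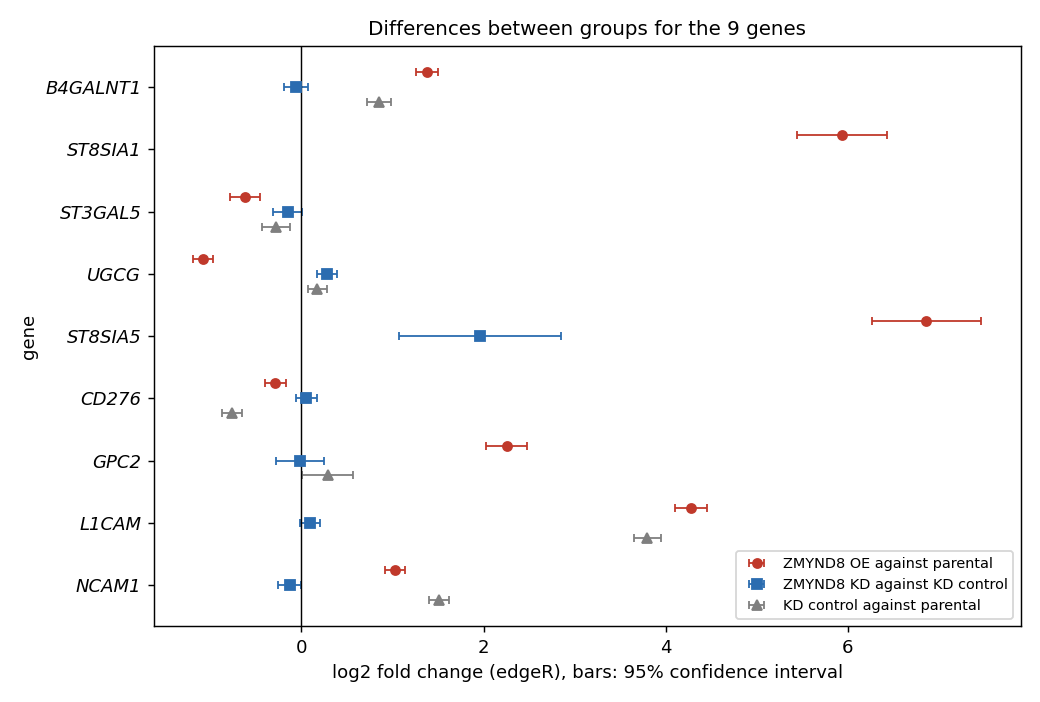
Log2 fold changes of the 9 genes (horizontal axis) with 95% confidence intervals from edgeR (bars) in ZMYND8 OE against parental (circles), ZMYND8 KD against KD control (squares) and KD control against parental (triangles). Missing symbols are comparisons in which counts were too low to test, and L1CAM and NCAM1 differ between the controls by 3.80 and 1.51.

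The difference between the overexpression and knockdown effects was tested in 1 fit of all 8 libraries, and 8 of the 9 genes passed, where 49.0% of the 22619 genes did. The overexpression effect was higher for L1CAM by 4.18 (SE 0.0957), ST8SIA5 by 4.90 (SE 0.558), GPC2 by 2.26 (SE 0.168), B4GALNT1 by 1.43 (SE 0.0788) and NCAM1 by 1.15 (SE 0.0761) on the log2 scale. It was lower for UGCG, with a difference of -1.37 (SE 0.0685, adjusted p = 4.21e-10), for ST3GAL5, at -0.48 (SE 0.104, adjusted p = 0.00146), and for CD276, at -0.35 (SE 0.0738, adjusted p = 0.00117). For ST8SIA1 the value of 0.93 (SE 1.39, adjusted p = 0.709) carries no information on the overexpression effect, because the KD control libraries are at 0. The size of ZMYND8's own change also differed, 5.87 up against 0.94 down, so these contrasts do not compare equal doses.

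The control groups differed from each other as well. KD control was higher than parental for L1CAM by 3.80 (SE 0.0658, adjusted p = 1.63e-11), NCAM1 by 1.51 (SE 0.0491, adjusted p = 8.69e-10), B4GALNT1 by 0.85 (SE 0.0589, adjusted p = 3.02e-07) and UGCG by 0.17 (SE 0.0478, adjusted p = 0.00772) on the log2 scale. It was lower for CD276, with a difference of -0.76 (SE 0.0492, adjusted p = 1.78e-07), and ST3GAL5, at -0.28 (SE 0.0687, adjusted p = 0.00384), and GPC2 did not pass (0.29, 95% interval 0.01 to 0.56, adjusted p = 0.0608). So 4 of the 7 genes tested were higher and 2 lower, beside 33.6% higher and 36.2% lower among 20385 genes, and 2 (L1CAM and NCAM1) passed the further thresholds, against 21.6%. Leaving out parental replicate 1 brought UGCG to 0.16 (adjusted p = 0.0544) and GPC2 to 0.11, and leaving out parental replicate 2 brought GPC2 to 0.48 (adjusted p = 0.00493). With trends of gene length and GC content taken out, UGCG stood at 0.05 (adjusted p = 0.37) and GPC2 at 0.65 (adjusted p = 0.000869), and with the replicate block as well ST3GAL5 stood at -0.67 and CD276 at -0.49. ST8SIA1 went from 5 and 7 counts in parental to 0 in the KD control, and ST8SIA5 from 2 and 3 to 7 and 8, a ratio of 2.62 with an exact 95% counting interval of 0.905 to 9.21. The overexpression comparison shares its parental libraries with this one. B4GALNT1, L1CAM and NCAM1 were thus higher in the KD control, which has no overexpression, than in the parental libraries, whereas ST8SIA1 and ST8SIA5 stood at 8 counts or fewer in both controls.

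Cell state markers also differed between the groups, both in ZMYND8 OE and in ZMYND8 KD. Of 10 adrenergic (neuroblast state) markers tested in ZMYND8 OE, 9 rose and 1 (TBX2) fell, beside 31.7% higher and 29.1% lower over all genes. The summed level of the 11 listed was 623 and 645 CPM in parental and 1280 and 1330 in ZMYND8 OE. It was 875 and 906 in KD control and 669 and 737 in ZMYND8 KD. Of 10 mesenchymal markers 9 fell and TWIST1 rose, with sums of 10800 and 11400 CPM in parental, 4330 and 4100 in ZMYND8 OE, 6400 and 6260 in KD control and 7810 and 7340 in ZMYND8 KD. In ZMYND8 KD, 6 of 9 adrenergic markers fell and 3 did not pass, while 5 of 10 mesenchymal markers rose, 2 fell and 3 did not pass. Over all genes 13.4% were higher there and 10.8% lower. The 5 Schwann lineage markers summed to 2.28 to 9.04 CPM, highest in ZMYND8 OE, with SOX10 at 0 or 1 count. The parental libraries were thus the least adrenergic and most mesenchymal by these sums, as they were lowest in L1CAM, NCAM1 and B4GALNT1. Single genes weigh heavily in the parental sums, such as COL1A1 at 3810 and 4280 CPM and TBX2 at 288 and 312. Gene by gene, KD control was higher than parental for 8 of 9 adrenergic markers tested and lower for 1. Of 10 mesenchymal markers 4 were higher in KD control and 6 lower, beside 33.6% higher and 36.2% lower over all genes. The part of these markers in the differences of the 9 genes was not tested.

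**Figure D3:**
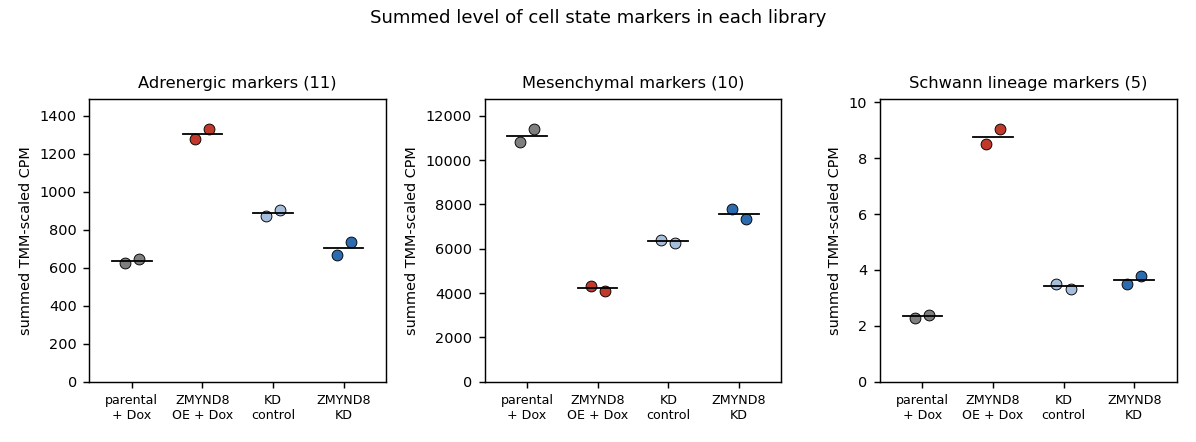
Summed TMM-scaled CPM (vertical axis, from 0) of the adrenergic, mesenchymal and Schwann lineage markers in each library (points), with lines at the group means. Adrenergic sums are highest in ZMYND8 OE (1280 and 1330), and mesenchymal sums in the parental libraries (10800 and 11400).

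Other enzymes of ganglioside synthesis moved both ways, at shares near those of all genes in ZMYND8 OE. Of the 11 listed, 10 were tested there, with 3 higher, 4 lower and 3 that did not pass. Over all genes 31.7% were higher and 29.1% lower. The median log2 fold change of the list was -0.029 against 0.031 over all genes. ST8SIA3, another sialyltransferase of the ST8SIA family, had 106 and 151 counts in parental and 4373 and 3764 in ZMYND8 OE, a rise of 4.94 (SE 0.0816, edgeR adjusted p = 2.98e-11). Its KD control libraries, without overexpression, had 2782 and 3290 counts and lay above parental by 4.37 (SE 0.0989) on the log2 scale. Also in ZMYND8 OE, B4GALT5, which makes lactosylceramide, the substrate of ST3GAL5, fell by 0.78 (SE 0.0462), ST6GALNAC3 by 0.77 (SE 0.0508) and ST6GALNAC5 by 0.56 (SE 0.0923) on the log2 scale. For these, KD control differed from parental by -0.47 (B4GALT5), -1.50 (ST6GALNAC3) and 0.24 (ST6GALNAC5). In ZMYND8 KD none rose, 4 fell and 6 did not pass, beside 13.4% higher and 10.8% lower over all genes. The median was -0.17 against -0.008. B4GALT5 fell there too, by 0.38 (SE 0.0497, adjusted p = 0.000371), and ST8SIA3 by 0.30 (adjusted p = 0.00879), but without KD control replicate 2 its difference was -0.21 (adjusted p = 0.0998). B3GALT4 had 0 counts in all libraries, but 100% of its exonic 31-base sequences also occur on alternate contigs of the genome, where reads can match more than 1 place, so its absence cannot be read from these counts.

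Enzymes of other glycolipid branches moved both ways. Of the 5 listed, 3 rose and 2 fell in ZMYND8 OE, beside 31.7% higher and 29.1% lower over all genes. Their median was 1.01 against 0.031 over all genes. A4GALT, which starts the globo-series, fell by 1.48 (SE 0.134, edgeR adjusted p = 3.99e-06), B3GNT5, which starts the lacto-series, fell by 0.76 (SE 0.0551), and B3GALNT1 rose by 1.01 (SE 0.0959). KD control differed from parental by -1.20 for A4GALT, -0.55 for B3GNT5 and 2.14 for B3GALNT1 on the log2 scale. Among 10 genes of ceramide supply tested in ZMYND8 OE, 3 rose, 5 fell and 2 did not pass (median -0.17). DEGS1, the desaturase of the last step to ceramide, fell by 1.18 (SE 0.0479) and the ceramide synthase gene CERS2 by 0.56 (SE 0.0491), while CERS4 rose by 1.30 (SE 0.0717) and CERS1 by 2.24 (SE 0.222), though 68.3% of the exon bases of CERS1 are shared with GDF1. The same control difference was -0.45 for DEGS1, -0.44 for CERS2, -0.48 for CERS4 and 1.955 for CERS1. Of 5 genes for the sialic acid donor, 2 fell and 3 did not pass in ZMYND8 OE (median 0.001). They were NANP, which fell by 0.47 (SE 0.0818), and NANS by 0.24 (adjusted p = 0.0243), and NANS no longer passed without parental replicate 2 (-0.15, adjusted p = 0.211) or ZMYND8 OE replicate 2 (-0.18, adjusted p = 0.105).

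Genes of ganglioside breakdown fell or did not pass. Of 9 tested in ZMYND8 OE, 6 fell, 3 did not pass and none rose, beside 31.7% higher and 29.1% lower over all genes. The median was -0.53 against 0.031 over all genes. HEXA, a subunit of the lysosomal hexosaminidase that degrades GM2, fell by 0.66 (SE 0.0549, edgeR adjusted p = 2.00e-06), and GLB1, the lysosomal beta-galactosidase, by 0.54 (SE 0.0607). KD control also lay below parental for 7 of the 9 and above it for 1, beside 36.2% lower and 33.6% higher over all genes. In ZMYND8 KD 3 rose, 3 fell and 3 did not pass (median -0.051), beside 13.4% higher and 10.8% lower. The sialidase genes NEU1 and NEU4 could not be tested, with 0 to 10 counts and 100% of their sequence on alternate contigs.

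**Figure D4:**
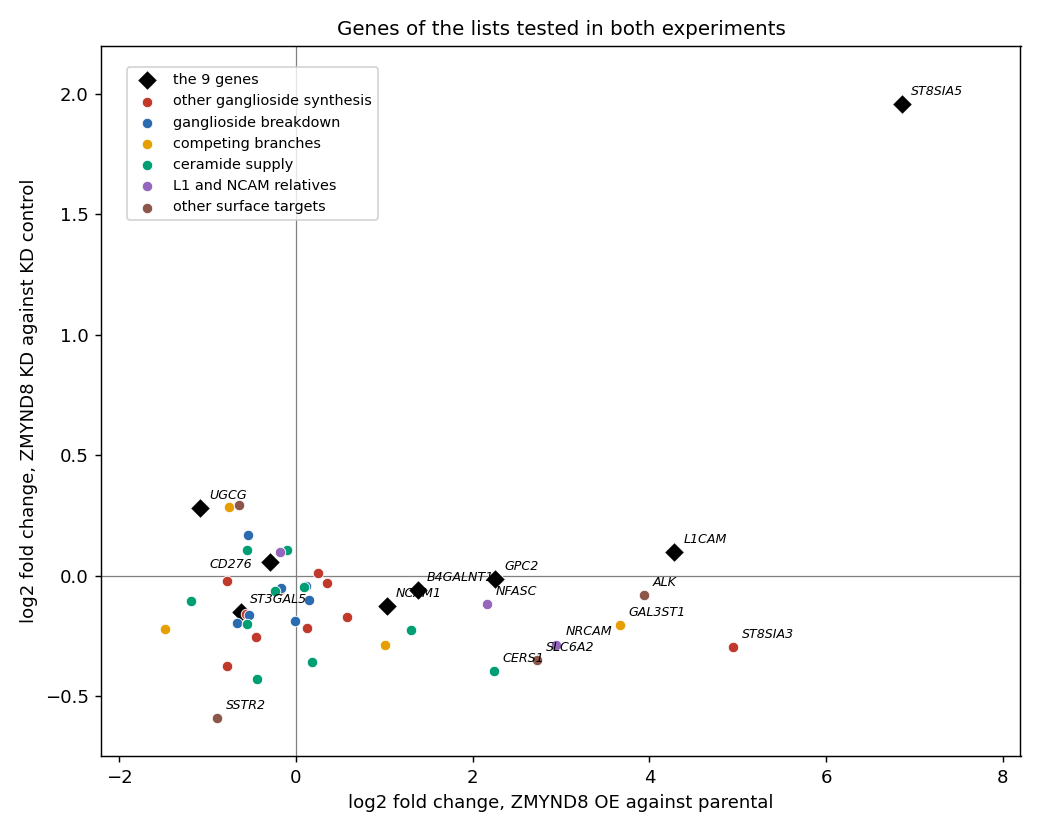
Log2 fold change in ZMYND8 OE against parental (horizontal axis) and in ZMYND8 KD against KD control (vertical axis) for the genes tested in both, with 8 of the 9 genes as black diamonds (ST8SIA1 was not tested in ZMYND8 KD) and genes of 6 other lists as coloured circles. ST8SIA5 is at the upper right (6.86 and 1.96), and UGCG is to the left and above 0 (-1.08 and 0.28).

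Relatives of the surface proteins differed from family to family. Among the L1 and NCAM relatives 3 of 4 rose in ZMYND8 OE, beside 31.7% of all genes, with a median of 2.55 against 0.031 over all genes. NRCAM had 760 and 1049 counts in parental and 7825 and 6501 in ZMYND8 OE, a rise of 2.95 (SE 0.066, edgeR adjusted p = 1.26e-10), and NFASC rose by 2.16 (SE 0.0947). CHL1 went from 0 counts in either parental library to 167 and 129 in ZMYND8 OE, so it lies above that median whatever its fold. NCAM2 fell by 0.18 (adjusted p = 0.017), which turned to 0.082 once trends with gene length and GC content were taken out, and did not pass without parental replicate 2 (-0.16, adjusted p = 0.0858) or ZMYND8 OE replicate 1 (-0.12, adjusted p = 0.131). As for L1CAM, the KD control lay above parental for NRCAM, by 3.61, and for NFASC, by 2.08. ST8SIA2, which builds the polysialic acid that NCAM1 carries in developing neurons, had 17 and 7 counts in parental, 748 and 609 in ZMYND8 OE, 642 and 774 in KD control and 522 and 628 in ZMYND8 KD. It rose by 5.75 (SE 0.243) in ZMYND8 OE and differed by -0.25 (adjusted p = 0.143) in ZMYND8 KD. The other polysialyltransferase gene, ST8SIA4, did not pass in ZMYND8 OE (-0.29, adjusted p = 0.213) and rose by 1.13 (SE 0.262, adjusted p = 0.0103) in ZMYND8 KD.

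The other B7 genes moved both ways. Of 5 tested in ZMYND8 OE, 2 rose and 3 fell (median -0.57 against 0.031 over all genes), beside 31.7% higher and 29.1% lower over all genes. CD274, which encodes PD-L1, had 519 and 586 counts in parental and 237 and 199 in ZMYND8 OE and fell by 1.39 (SE 0.108, edgeR adjusted p = 1.23e-06). PDCD1LG2, for PD-L2, fell by 1.91 (SE 0.0997), VSIR by 0.57 (SE 0.11), and NCR3LG1, the ligand of NKp30, rose by 1.51 (SE 0.0594). Between the controls, KD control differed from parental by 1.21 for CD274, 0.56 for PDCD1LG2, -0.99 for VSIR and 0.95 for NCR3LG1. In ZMYND8 KD 3 of 5 rose and 2 did not pass, beside 13.4% higher and 10.8% lower over all genes. Those that rose were CD274 (0.39, SE 0.0625), PDCD1LG2 (0.34, SE 0.0645) and VSIR (0.58, SE 0.0724). Among the other glypicans 1 of 5 rose and 4 fell in ZMYND8 OE (median -0.57). GPC4 fell by 1.75 (SE 0.161, adjusted p = 4.61e-06), GPC1 by 0.57 (SE 0.0593) and GPC6 by 0.26 (SE 0.0564), while GPC2 rose. With trends of gene length and GC content taken out GPC6 did not pass (-0.095, adjusted p = 0.169). The control difference was 1.73 for GPC4, -1.085 for GPC1 and 0.24 for GPC6. Of the 5 other neuroblastoma targets 3 rose and 2 fell in ZMYND8 OE (median 2.73). The receptor gene ALK had 84 and 123 counts in parental, 1574 and 1653 in ZMYND8 OE and 1847 and 2487 in KD control, and rose by 3.93 (SE 0.147) in ZMYND8 OE. SLC6A2, the noradrenaline transporter that takes up MIBG, rose by 2.73 (SE 0.0783), while SSTR2 fell by 0.89 (SE 0.0962) and ROR1 by 0.64 (SE 0.0562). KD control differed from parental by 2.30 for SLC6A2, 0.41 for SSTR2 and -0.41 for ROR1.

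In ZMYND8 KD the remaining lists had small medians, while single genes changed more. GPC4 fell by 0.52 (SE 0.103, edgeR adjusted p = 0.00425) and SSTR2 by 0.59 (SE 0.0965, adjusted p = 0.00139), as both did in ZMYND8 OE. In the same 2 lists GPC6 rose by 0.30 (SE 0.0521) and ROR1 by 0.29 (SE 0.0635). Over all genes 13.4% were higher and 10.8% lower. Of the enzymes of other glycolipid branches 1 of 4 tested rose, 1 fell and 2 did not pass (median -0.21, against -0.008 over all genes). Of ceramide supply 3 of 10 fell and 7 did not pass (median -0.15), and of the sialic acid donor genes none of 5 passed (median 0.027). Of the L1 and NCAM relatives 1 of 3 fell and 2 did not pass (median -0.12), of the glypicans 1 of 4 rose, 1 fell and 2 did not pass (median -0.045), and of the other targets 1 of 4 rose, 2 fell and 1 did not pass (median -0.21). Several of the smaller changes in ZMYND8 KD did not pass once a library was left out, which also lowers the power of the test. Some did not pass with all libraries kept either. With DESeq2 these included HEXA, GLB1 and SLC6A2 (adjusted p = 0.0578, 0.0693 and 0.297). Without the filter on low counts they included CERS2, HEXA, GLB1, NRCAM, SLC6A2 and ST8SIA3 (edgeR adjusted p = 0.0509 to 0.214). Without KD control replicate 1 the calls of B3GNT5, CERS2, HEXA, GLB1 and ROR1 no longer passed, with log2 fold changes of 0.23, -0.14, -0.19, 0.19 and 0.21. Without KD control replicate 2 those of B3GALNT1, HEXA, GLB1, NRCAM and SLC6A2 did not pass, at -0.27, -0.21, 0.14, -0.22 and -0.22, and without ZMYND8 KD replicate 1 those of HEXA, GLB1 and SLC6A2, at -0.17, 0.15 and -0.17.

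The genes most like 3 of the 9 were found by the Pearson correlation of log2(CPM + 1) over the 8 libraries, among 13549 genes with a mean normalized count above 100. It is a description only, since a gene that is near 0 outside ZMYND8 OE, as ST8SIA1 is, passes that minimum only through the ZMYND8 OE libraries, and such genes correlate by construction. For ST8SIA1 they were CYP26A1 (r = 0.9989), AFF2 (r = 0.9984) and CACNA1H (r = 0.9977), of which AFF2 and CACNA1H had 0 to 4 counts in the 6 libraries without overexpression. CYP26A1, the retinoid-induced enzyme that degrades ATRA, had 1633 and 2042 counts in parental and 60280 and 52566 in ZMYND8 OE. In the other 4 libraries it had 1586 to 1843. For B4GALNT1 they included PDZD4 (r = 0.9988) and SHD (r = 0.9986), and for L1CAM ZNF423 (r = 0.9986) and CAMK2N1 (r = 0.9980). SHD had 4.73 and 5.61 CPM in parental, 264 and 262 in ZMYND8 OE and 48.6 to 65.3 in the knockdown experiment. As all these genes were picked by correlation over the same libraries, a shared order of groups follows from the choice. Above r = 0.95 lay 2.24% of genes with ST8SIA1, 3.31% with B4GALNT1 and 3.64% with L1CAM.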

How the data were processed

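The 8 libraries hold the RNA of SK-N-SH cells. The authors deposited raw counts, that is reads per gene that were not normalized, with the summed exon length of each gene. By the methods, reads were trimmed with Trim_Galore, mapped by Hisat2 on GRCh38 and assigned by featureCounts to GENCODE genes, and the strand setting is not given in the sources used here. Of 60662 lines, 3 that belong to 1 split gene were left out, and 60418 of the 60659 genes have a GENCODE 44 symbol. Coordinates are those of the count table. Libraries held 38316523 to 56256979 counts, and replicates differed by more than sampling noise (chi-square per degree of freedom 6.05 to 8.86).

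For each comparison, its 4 libraries alone entered a quasi-likelihood test of edgeR 4.0.16 (R 4.3.3, limma 3.58.1; filterByExpr, TMM, two-sided, Benjamini-Hochberg over all genes tested), and the contrast of effects on all 8. DESeq2 1.42.0 was an alternative. The procedure was tested on simulated data. Named were the 9 genes, ZMYND8, at most 4 genes a list that passed the test and averaged over 100 normalized counts, by size of change in ZMYND8 OE, and the 3 genes most like B4GALNT1, ST8SIA1 and L1CAM. ST8SIA4, B3GALT4, NEU1, NEU4, TBX2, TWIST1, TH and SOX10 were named after their values were seen. CHL1, COL1A1, HAND2 and GATA3 also stand outside this rule. Some genes that this rule names are not reported here. The genes and lists were chosen with earlier results of these data known. Counting intervals cover counting error only.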

Additional observations from a re-analysis of the deposited data

Results flagged for a closer look

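UGCG fell in ZMYND8 OE and rose in ZMYND8 KD, with all 4 libraries of each experiment ordered the same way and no overlap. The difference between the effects was -1.37 on the log2 scale (SE 0.0685, edgeR adjusted p = 4.21e-10 over 22619 genes), where 49.0% of all genes passed that test. It ran from -1.08 (SE 0.0481) in the overexpression experiment to 0.28 (SE 0.0501) in the knockdown experiment. Groups of 2 libraries are too small to test for a sample far from the others.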

How the results depend on the processing

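With 2 libraries a group, p-values measure the spread between these pairs only. All 108 alternative values of the 9 genes in ZMYND8 OE and all 117 of the difference of effects kept their direction and side of the threshold. In ZMYND8 KD 86 of 95 did, 5 came to pass (4 of NCAM1 and 1 of ST3GAL5) and 4, all of GPC2, changed sign, at 0.019 with the gene length and GC correction, 0.013 with that correction and the replicate block, and -0.187 to 0.138 over fits that leave out 1 library. For KD control against parental 82 of 91 did, 3 of UGCG were lost and 6 of GPC2 came to pass. NCAM2 in ZMYND8 OE turned to 0.082 with the gene length and GC correction, and to 0.085 with the block as well. Of the 9 genes, 2 passed in ZMYND8 KD, against 1 with DESeq2 (which gave ST8SIA5 no adjusted p), 4 with the block and the gene length and GC correction, and 0 with the fold change and mean thresholds. In KD control against parental 6 passed, against 2 with those thresholds. Over all genes, 4799 passed in ZMYND8 KD, against 2970 without the filter on low counts and 2813 (without KD control replicate 2) to 4603 with 1 library left out. Replicate numbers are shared by the groups, but with 2 pairs each they are not shown to pair samples, as deviations of same-numbered libraries correlated at 0.105 in the overexpression and 0.201 in the knockdown experiment. The replicate block brought the genes passing in ZMYND8 KD to 6318, and NCAM1 then passed (-0.127, adjusted p = 0.0361). Parental and KD control deviations correlated at -0.115, and a block with crossed numbers, added after seeing the data, gave 14309 calls against 14244. Why these values moved was not tested. ST8SIA1 and ST8SIA5 rest on 0 to 8 counts in both controls, so their folds are limited by depth.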
